A study of Homo sapiens with 6 samples.

Results

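The 10 genes described here encode the enzymes that make long-chain fatty acids from acetyl-CoA and then desaturate and elongate them: ACLY, ACSS2, ACACA, FASN, SCD, FADS1, FADS2, FADS3, ELOVL5 and ELOVL6. Each was taken by its symbol from the 42307 genes in the deposited tables, where each symbol had 1 row. RNA was sequenced from U251, an established human glioblastoma cell line. One group of cells was transfected with STING overexpression plasmids (STING-OE, 3 libraries) and its controls with negative control plasmids (NC, 3 libraries). In both groups the genotype was labelled WT, 1 ug of plasmid was given per well, and RNA was taken at day 3. The sources used here give neither the plasmid's promoter nor the share of cells that took it up. Whether replicates came from separate cultures is not labelled, so the spread behind the p-values is that between these samples and may be technical.

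Fatty acid synthesis starts in the cytosol with acetyl-CoA, which ACLY makes from citrate and ACSS2 from acetate. ACACA, acetyl-CoA carboxylase, turns it into malonyl-CoA, and FASN, fatty acid synthase, joins these units into palmitate. ELOVL6 lengthens palmitate to stearate, SCD puts the first double bond into both, and FADS1, FADS2 and ELOVL5 turn dietary essential fatty acids into highly unsaturated ones such as arachidonate. The genes of this pathway are textbook targets of the SREBP transcription factors, and glioblastoma cells are known for active fatty acid synthesis.

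Counts summed to between 71498790 and 76566375 per library, so that 3 counts corresponded to at most 0.042 CPM of the total count. That floor covers counting error only. All other CPM are counts scaled to the TMM-adjusted library size. STING1, the gene on the plasmid, was at 56.3, 54.7 and 47.3 CPM in STING-OE libraries 1, 2 and 3, against 36.2, 37.1 and 31.2 CPM in NC libraries 1, 2 and 3. It rose 1.51-fold (log2 fold change 0.60, SE 0.0777, edgeR adjusted p = 0.00221). Among 10 glioma and astrocyte markers 9 had a mean of at least 1 CPM, and S100B was at 0.0517 to 0.143 CPM in the STING-OE libraries and 0.150 to 0.331 CPM in the NC libraries. Their sum was 4573 to 4727 CPM in the STING-OE libraries and 4916 to 5072 CPM in the NC libraries. Defining genes of liver and fat cells were near 0, with 0.794 to 1.42 CPM for 5 genes together in the STING-OE libraries and 0.543 to 1.65 CPM in the NC libraries. The 5 leukocyte markers summed to 3.67 to 6.71 CPM in the STING-OE libraries and 5.06 to 10.7 CPM in the NC libraries. For the 4 epithelial markers the sum was 0.677 to 3.13 CPM in the STING-OE libraries and 0.530 to 1.68 CPM in the NC libraries. The 3 neuronal markers summed to 2.86 to 4.31 CPM with the STING plasmid and 3.08 to 3.60 CPM with the control plasmid.

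The question was what STING overexpression does to the transcripts of these enzymes. FASN, FADS1, FADS2 and ACACA fell with the STING plasmid, and none of the 10 genes rose. All 10 passed the filter on low counts. At an adjusted p under 0.05 in edgeR's quasi-likelihood test 4 of them were lower, beside 0.89% of the 21679 tested genes called lower and 0.604% called higher. DESeq2 called 7 of them lower (2.73% of all tested genes) and limma-voom 4 (0.89%). At an unadjusted edgeR p under 0.05 there were 9 lower, where 7.2% of all tested genes were. None was higher by DESeq2, by limma-voom or at an unadjusted edgeR p under 0.05, where 1.89%, 0.558% and 7.17% of all tested genes were. All 10 estimates were negative, where 49.8% of all tested genes had a negative one. Of 133 tested genes in 7 other lists of lipid metabolism, given below, 101 had a negative estimate too. The median log2 fold change of the 10 genes was −0.28, against 0.00 over all tested genes. In 8 genes every STING-OE library lay below every NC library, which held for 9.73% of tested genes. These counts are a description, since the genes were chosen with earlier results known.

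The number of these genes called lower depended on single libraries. It was 1 without NC library 1, 2 without NC library 2 and 3 without NC library 3, where 0.115%, 0.115% and 0.279% of all tested genes were called lower by edgeR. It was 3 without STING-OE library 1, 3 without STING-OE library 2 and 5 without STING-OE library 3, beside 2.12%, 0.208% and 0.448% of all tested genes. None of the 4 called genes passed in all 6 of these fits. Tested by limma on the logarithm of the deposited FPKM, counts divided by model length and library total, 0 of the 10 genes passed, where 0.0138% of all tested genes were called lower.

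The counts of all 10 genes together came to 2592, 2395 and 2859 CPM in STING-OE libraries 1, 2 and 3, against 3710, 3682 and 3423 CPM in NC libraries 1, 2 and 3. The groups did not overlap. The means were 2615 ± 233 CPM with the STING plasmid and 3605 ± 158 CPM with the control plasmid (SD, n = 3 each), a ratio of 0.725. A lower level per cell and a change in fewer cells cannot be told apart in bulk RNA.

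**Figure D1:**
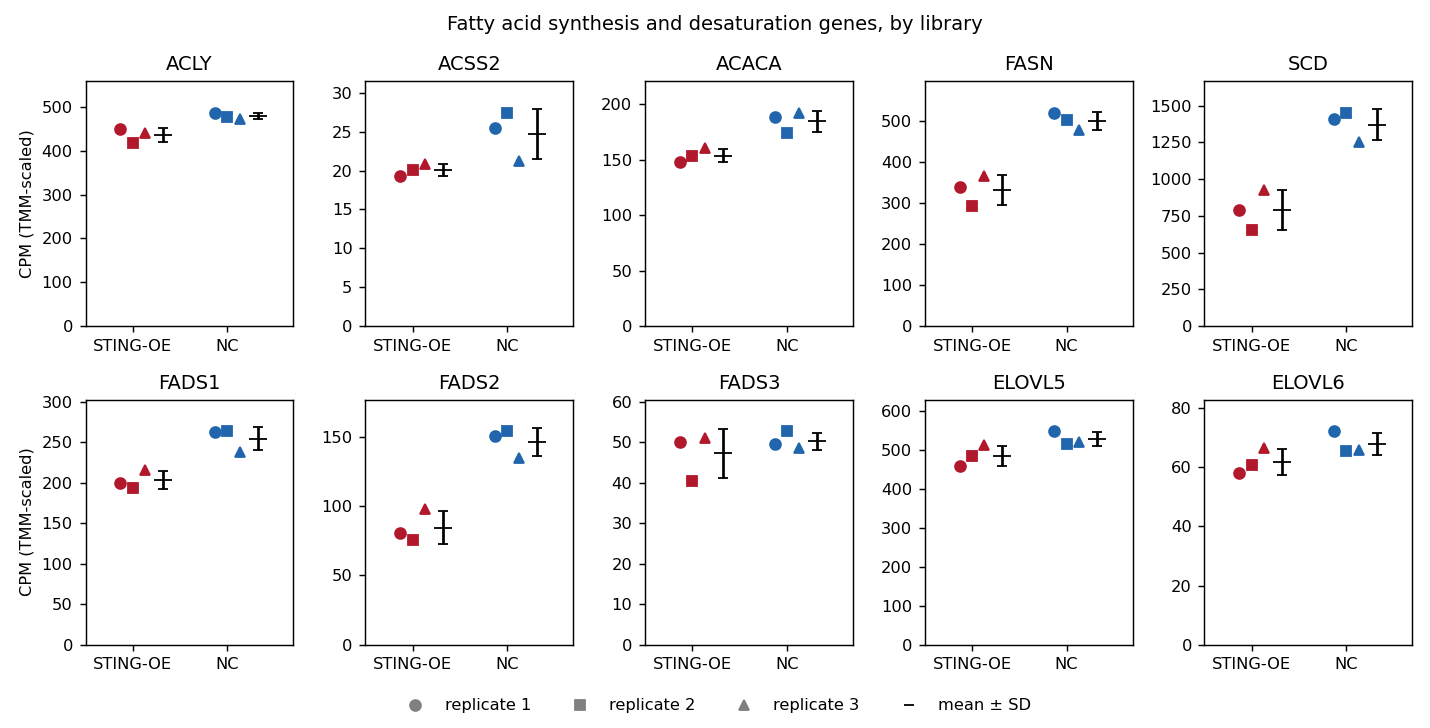
Level of each of the 10 genes in CPM on TMM-scaled library sizes (y axis, starting at 0), with the 3 STING-OE libraries in red left of the 3 NC libraries in blue; symbols mark the replicate number and black bars the mean ± SD. The groups are apart in 8 panels and overlap in those of FADS3 and ELOVL6.

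Of the enzymes that supply acetyl-CoA and malonyl-CoA, ACACA fell and ACLY and ACSS2 did not pass. ACACA (ENSG00000278540, minus strand of chromosome 17, 37084992 to 37406836) had 148, 153 and 160 CPM in STING-OE libraries 1, 2 and 3 and 188, 174 and 192 CPM in NC libraries 1, 2 and 3. The highest STING-OE library lay at 0.921 of the lowest NC library. ACACA fell to 0.833 of the control level, a log2 estimate of −0.26 (SE 0.050, edgeR adjusted p = 0.0162). It did not pass without NC library 1 or 3 or STING-OE library 2 (edgeR adjusted p of 0.113, 0.118 and 0.0712). The model of C17orf78 lies within that of ACACA on the opposite strand but had at most 14 counts in any library.

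ACLY, ATP citrate lyase (ENSG00000131473, minus strand of chromosome 17, 41866917 to 41930542), had 449, 417 and 441 CPM in STING-OE libraries 1, 2 and 3 and 486, 476 and 473 CPM in NC libraries 1, 2 and 3. The groups did not overlap, but the difference was small, −0.13 on the log2 scale (SE 0.0429, edgeR adjusted p = 0.137). ACLY passed without STING-OE library 1 (edgeR adjusted p = 0.0353). ACSS2, the acetate-using synthetase (ENSG00000131069, plus strand of chromosome 20, 34872146 to 34927962), was the least abundant of the 10 genes in CPM. It had 19.3, 20.1 and 20.8 CPM in STING-OE libraries 1, 2 and 3 and 25.5, 27.4 and 21.2 CPM in NC libraries 1, 2 and 3. NC library 3 lay next to the STING-OE libraries, and the log2 fold change of −0.30 (SE 0.0891) did not pass (edgeR adjusted p = 0.112). The ACSS2 model overlaps that of GGT7 on the opposite strand by 711 bases.

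FASN (ENSG00000169710, minus strand of chromosome 17, 82078338 to 82098294) was counted 26061, 22676 and 27834 times in STING-OE libraries 1, 2 and 3 and 38222, 35676 and 36070 times in NC libraries 1, 2 and 3. That made 339, 293 and 366 CPM with the STING plasmid and 520, 504 and 478 CPM with the control plasmid. The highest STING-OE library of FASN was at 0.767 of the lowest NC library, so the groups were well apart. FASN fell to 0.665 of the control level (log2 fold change −0.59, SE 0.0729, edgeR adjusted p = 0.00538). It passed in 5 of the 6 fits with 1 library left out and not without STING-OE library 1 (edgeR adjusted p = 0.0880). The log2 ratio of FASN to ACLY counts, which does not depend on library scaling, was −0.394 ± 0.121 with the STING plasmid and 0.0640 ± 0.0440 with the control plasmid (SD, n = 3 each). No STING-OE library reached the ratio of any NC library (two-sided exact permutation p = 0.1, the smallest that 3 against 3 samples allow).

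Promoter sequences are shown for SCD and for the 3 clustered desaturases, since FADS1 and FADS2 fell and FADS3 did not pass although they neighbour each other. The windows run from 250 bases before to 50 after a RefSeq start in GRCh38.p14, are written 5′ to 3′ on the gene's strand, and carry in capitals the NF-Y box CCAAT or its complement ATTGG. They lie at chr10:100346983-100347282 (plus strand, SCD), chr11:61816154-61816453 (plus strand, FADS2), chr11:61816954-61817253 (minus strand, FADS1) and chr11:61891496-61891795 (minus strand, FADS3). FADS2 has another listed start, whose window at chr11:61815953-61816252 holds no box, and the window shown was chosen because it holds one. Only these 2 listed starts of FADS2 were searched, and which start these cells use was not tested.
SCD: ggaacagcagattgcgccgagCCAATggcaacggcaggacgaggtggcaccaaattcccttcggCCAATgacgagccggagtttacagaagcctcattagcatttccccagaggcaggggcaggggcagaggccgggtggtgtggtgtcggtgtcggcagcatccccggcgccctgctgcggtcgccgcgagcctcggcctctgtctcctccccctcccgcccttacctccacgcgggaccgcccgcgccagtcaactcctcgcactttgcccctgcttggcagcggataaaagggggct
FADS2: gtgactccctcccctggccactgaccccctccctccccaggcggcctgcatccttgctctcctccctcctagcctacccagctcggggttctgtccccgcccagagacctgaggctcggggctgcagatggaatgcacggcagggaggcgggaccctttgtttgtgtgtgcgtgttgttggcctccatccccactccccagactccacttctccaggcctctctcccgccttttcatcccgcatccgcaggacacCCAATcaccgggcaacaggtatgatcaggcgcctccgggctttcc
FADS1: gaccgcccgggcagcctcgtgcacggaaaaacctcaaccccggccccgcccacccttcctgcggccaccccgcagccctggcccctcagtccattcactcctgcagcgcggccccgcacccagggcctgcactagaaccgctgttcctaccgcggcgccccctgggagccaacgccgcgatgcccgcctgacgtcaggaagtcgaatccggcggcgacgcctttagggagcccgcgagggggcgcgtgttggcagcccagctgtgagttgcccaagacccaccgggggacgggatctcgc
FADS3: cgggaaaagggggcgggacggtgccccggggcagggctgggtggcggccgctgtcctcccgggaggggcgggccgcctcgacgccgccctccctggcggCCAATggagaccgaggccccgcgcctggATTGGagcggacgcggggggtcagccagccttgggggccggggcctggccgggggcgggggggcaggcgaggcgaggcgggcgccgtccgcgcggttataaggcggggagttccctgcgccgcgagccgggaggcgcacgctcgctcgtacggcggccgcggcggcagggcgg
SCD holds the box at −229 and −186 and FADS3 at −151 and −123, where a box is placed by its left base counted from the start. FADS2 holds it at 6, after the start, and FADS1 holds none in this window. The start of FADS1 lies 599 bases to the right of this start of FADS2, so that from these 2 starts the genes read towards and across each other.

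For the enzymes, 14 windows covering 9 of the 10 genes were found (not FASN), and 9 of the windows (64.3%), in 7 genes, held the NF-Y box on either strand, against 34.6% of the 35116 windows of all genes. The Sp1 box GGGCGG, or CCGCCC on the other strand, was in 11 of the 14 windows (78.6%) and in 45% of all windows. The E-box CACGTG was in 1 window, that of ELOVL5 (7.14%, against 7.26% of all windows). The SREBP element TCACNCCAC, or GTGGNGTGA on the other strand, was in 0 of the 14 windows and in 1.13% of all windows, which says only that these letters are not in these windows. Windows of the same gene can overlap, so the 14 are not independent, and those of ACLY hold the same NF-Y boxes. The windows of all genes were not limited to genes expressed in these cells. No share per gene was computed for them.

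SCD, stearoyl-CoA desaturase (ENSG00000099194, plus strand of chromosome 10, 100347233 to 100364826), had the most counts of the 10 genes. It had 60620, 50799 and 70525 counts in STING-OE libraries 1, 2 and 3 and 103468, 102756 and 94391 counts in NC libraries 1, 2 and 3. Scaled, these were 789, 657 and 928 CPM with the STING plasmid and 1408, 1451 and 1250 CPM with the control plasmid. Every STING-OE library lay below every NC library, the nearest pair at a ratio of 0.743. The estimate, 0.578 of the control level, was about as low as that of FADS2, yet SCD did not pass (log2 fold change −0.79, SE 0.151, edgeR adjusted p = 0.12). The STING-OE libraries varied by 17.1% of their mean (CV), the largest such value among the 10 genes, and the NC libraries by 7.73%. Without STING-OE library 3, in which SCD was highest of the 3, it passed with a log2 fold change of −0.92 (edgeR adjusted p = 0.00988), and DESeq2 called it with all libraries (adjusted p = 6.44e-05).

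**Figure D2:**
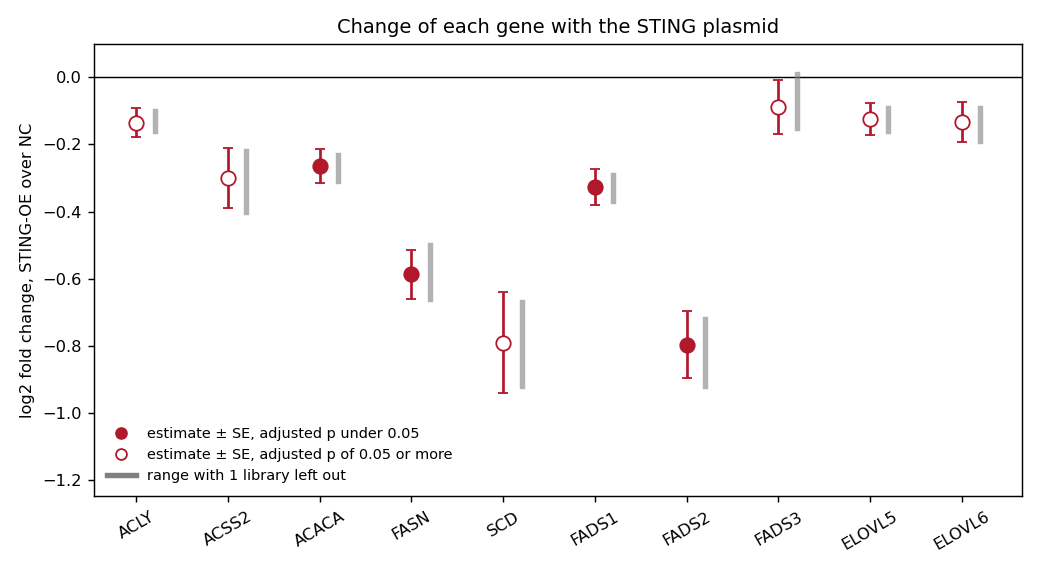
Log2 fold change of each gene, STING-OE over NC (y axis), in pathway order from the acetyl-CoA enzymes to the elongases; filled points passed edgeR's test at an adjusted p under 0.05, bars are standard errors, and grey lines span the estimates with 1 library left out. FADS2 (−0.80) and SCD (−0.79) are lowest and FADS3 (−0.09) is nearest 0, with a grey line that reaches 0.01.

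FADS1, FADS2 and FADS3, the desaturases whose promoter windows were shown, lie in a cluster on chromosome 11, where FADS1 and FADS2 fell and FADS3 did not pass. FADS2, which acts first on essential fatty acids (ENSG00000134824, plus strand, 61792980 to 61867354), was counted 6166, 5841 and 7429 times in STING-OE libraries 1, 2 and 3 and 11130, 10899 and 10218 times in NC libraries 1, 2 and 3. Its levels were 80.3, 75.5 and 97.8 CPM with the STING plasmid and 151, 154 and 135 CPM with the control plasmid. No library of one group came near the other, the nearest pair being at a ratio of 0.723. FADS2 fell to 0.576 of the control level (log2 fold change −0.80, SE 0.101, edgeR adjusted p = 0.0175). FADS2 did not pass without NC library 1, NC library 2 or STING-OE library 1 (edgeR adjusted p of 0.0773, 0.0716 and 0.0770) and, narrowly, after correction for GC content and length (0.0540).

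FADS1, the desaturase of the following step (ENSG00000149485, minus strand, 61799627 to 61829318), had 200, 193 and 215 CPM in STING-OE libraries 1, 2 and 3 and 262, 263 and 238 CPM in NC libraries 1, 2 and 3. The groups were apart, at 0.904 between the nearest libraries. It fell to 0.797 of the control level (log2 fold change −0.33, SE 0.0526, edgeR adjusted p = 0.00570), and the call was lost without NC library 1 or 2 (edgeR adjusted p of 0.0747 and 0.0608). FADS3, the third gene of the cluster, which acts on sphingoid bases (ENSG00000221968, minus strand, 61873519 to 61892051), had 50.2, 40.4 and 51.2 CPM in STING-OE libraries 1, 2 and 3 and 49.5, 52.7 and 48.6 CPM in NC libraries 1, 2 and 3. STING-OE library 2 was low and the other libraries of both groups overlapped. The estimate for FADS3 was −0.09 on the log2 scale (SE 0.0799, edgeR adjusted p = 0.707), and 0.01 without STING-OE library 2. The log2 ratio of FADS3 to FADS2 counts was −0.838 ± 0.140 with the STING plasmid and −1.55 ± 0.0672 with the control plasmid (SD, n = 3 each), and the groups did not overlap.

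The FADS2 to FADS1 ratio was lower in every STING-OE library than in any NC library. FADS2 had 0.402, 0.391 and 0.455 counts for each FADS1 count in STING-OE libraries 1, 2 and 3, against 0.578, 0.585 and 0.569 in NC libraries 1, 2 and 3. The NC libraries lay close to each other. The mean log2 ratio was −1.27 ± 0.117 with the STING plasmid and −0.793 ± 0.0204 with the control plasmid (SD, n = 3 each), a difference of −0.477 that does not depend on library scaling (two-sided exact permutation p = 0.1, the smallest possible here).

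The deposited model of FADS1 lies wholly within that of FADS2, on the opposite strand, so all of its 29692 bases overlap. The sources used here do not give the strand setting of the counting, so reads of the pair may be split between them. FADS2 also overlaps the replication gene FEN1 on the same strand by 4259 bases. FEN1 itself stood at 163, 143 and 154 CPM in STING-OE libraries 1, 2 and 3 and at 153, 159 and 154 CPM in NC libraries 1, 2 and 3 (log2 fold change −0.02, edgeR adjusted p = 0.935). With FEN1 counted in, the sum of the 3 models was 441 ± 27.6 CPM with the STING plasmid and 557 ± 25.5 CPM with the control plasmid (SD, n = 3 each), and its groups did not overlap. That sum was added after the coordinates were seen.

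Of 9 tested neighbours of the cluster 2 fell, FTH1 and INCENP, and 0 rose, beside 0.89% and 0.604% of all tested genes in edgeR. None was higher at an unadjusted edgeR p under 0.05, by DESeq2 or by limma-voom, where 7.17%, 1.89% and 0.558% of all tested genes were. FTH1, the ferritin heavy chain, was at 4054 ± 207 CPM with the STING plasmid and 4803 ± 54.5 CPM with the control plasmid (log2 fold change −0.24, edgeR adjusted p = 0.0103). Its value is uncertain, since it has near-identical pseudogenes and its model overlaps that of BEST1 on the opposite strand. INCENP, of the chromosomal passenger complex, was at 102 ± 3.55 CPM with the STING plasmid and 121 ± 1.49 CPM with the control plasmid (edgeR adjusted p = 0.0143). Neither passed without NC library 1, 2 or 3 (edgeR adjusted p of 0.0674 to 0.0904 for FTH1 and 0.0676 to 0.0990 for INCENP), and FTH1 did not pass without STING-OE library 3 either (0.0514). Nearer to the cluster, MYRF, a myelin gene regulator, had 8.11, 6.98 and 6.25 CPM in STING-OE libraries 1, 2 and 3 and 8.87, 8.73 and 7.26 CPM in NC libraries 1, 2 and 3 (log2 fold change −0.22, edgeR adjusted p = 0.496). TMEM258, a subunit of the oligosaccharyltransferase, differed by 0.03 on the log2 scale (edgeR adjusted p = 0.964).

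**Figure D3:**
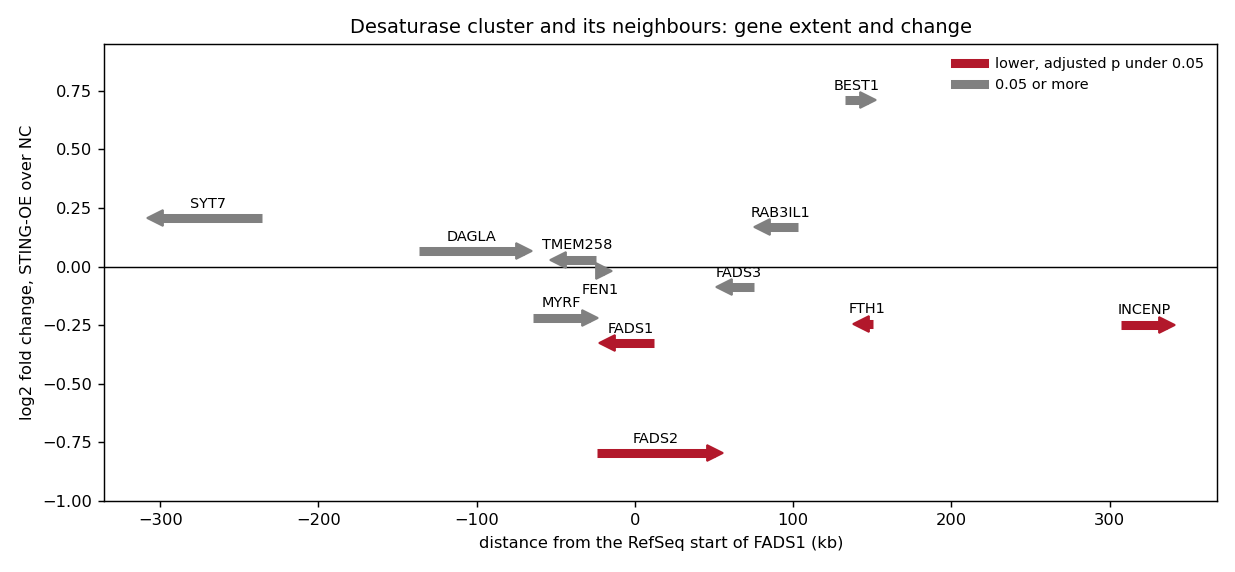
The desaturase cluster and its neighbours on chromosome 11, each deposited gene model a bar drawn to scale by its distance in kb from the RefSeq start of FADS1 (x axis) at the height of its log2 fold change, STING-OE over NC (y axis); arrowheads beyond the bars show the strand and red marks an edgeR adjusted p under 0.05. FADS2 at −0.80 and FADS1 at −0.33 lie below FADS3 at −0.09 and FEN1 at −0.02.

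The elongases showed small differences. ELOVL5, which lengthens polyunsaturated fatty acids (ENSG00000012660, minus strand of chromosome 6, 53267398 to 53349179), had 459, 484 and 512 CPM in STING-OE libraries 1, 2 and 3 and 548, 515 and 522 CPM in NC libraries 1, 2 and 3. STING-OE library 3 nearly touched NC library 2, at a ratio of 0.993. The log2 fold change was −0.12 (SE 0.0472, edgeR adjusted p = 0.221), and it was −0.165 with a call after correction for GC content and length (edgeR adjusted p = 0.0305). ELOVL6 (ENSG00000170522, minus strand of chromosome 4, 110045846 to 110198653) had 58.2, 60.8 and 66.6 CPM in STING-OE libraries 1, 2 and 3 and 72.2, 65.5 and 66.0 CPM in NC libraries 1, 2 and 3. The groups overlapped, and the log2 fold change was −0.13 (SE 0.060, edgeR adjusted p = 0.315). The log2 ratio of ELOVL6 to ELOVL5 counts was −2.97 ± 0.0268 with the STING plasmid and −2.96 ± 0.0331 with the control plasmid (SD, n = 3 each; two-sided exact permutation p = 0.6).

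Levels of different genes were compared per length, in the deposited FPKM. SCD was highest, at 139, 118 and 164 FPKM in STING-OE libraries 1, 2 and 3 and 250, 252 and 217 FPKM in NC libraries 1, 2 and 3. ELOVL5 was next, at 118 ± 7.03 FPKM in STING-OE cells and 127 ± 5.58 FPKM in NC cells (SD, n = 3 each). The STING-OE libraries of SCD and ELOVL5 overlapped, and their NC libraries did not. ACLY followed at 77.9 ± 2.04 FPKM with the STING plasmid and 84.3 ± 2.17 FPKM with the control plasmid, and FASN at 33.2 ± 3.45 FPKM with the STING plasmid and 49.3 ± 2.58 FPKM with the control plasmid.

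FADS1 came next in FPKM, with 18.4 ± 0.947 in STING-OE cells and 22.8 ± 1.41 in NC cells, and then ACACA, with 11 ± 0.483 in STING-OE cells and 13 ± 0.728 in NC cells. FADS2 was at 7.45 ± 1.01 FPKM in STING-OE cells and 12.8 ± 0.939 FPKM in NC cells. ELOVL6 was at 7.91 ± 0.571 FPKM in STING-OE cells and 8.56 ± 0.576 FPKM in NC cells. FADS2 overlapped ELOVL6 in STING-OE cells, and in NC cells it overlapped ACACA instead and stood above ELOVL6. FADS3 (6.98 ± 0.810 in STING-OE and 7.32 ± 0.295 in NC cells) and ACSS2 (3.54 ± 0.161 in STING-OE and 4.30 ± 0.567 in NC cells) had the lowest means. The STING-OE libraries of FADS3 overlapped those of FADS2 and ELOVL6, and its NC libraries overlapped neither. The authors' FPKM imply a length of about 11.2 kb for FADS1 and 11.5 kb for FADS2 at most, 2.45 and 2.26 times the longest GENCODE transcript, against 1.06 to 1.87 times for the other 8 genes, and a longer assumed length gives a lower FPKM.

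SCD made up 32.9 ± 2.86% of the FPKM summed over the 10 genes in STING-OE cells and 42.1 ± 1.6% in NC cells (SD, n = 3 each). The whole sum was 425 ± 34.8 FPKM with the STING plasmid and 569 ± 29.1 FPKM with the control plasmid. Without SCD it was 285 ± 12.5 FPKM in STING-OE cells and 329 ± 12.7 FPKM in NC cells, a ratio of 0.865 against 0.747 with SCD.

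**Figure D4:**
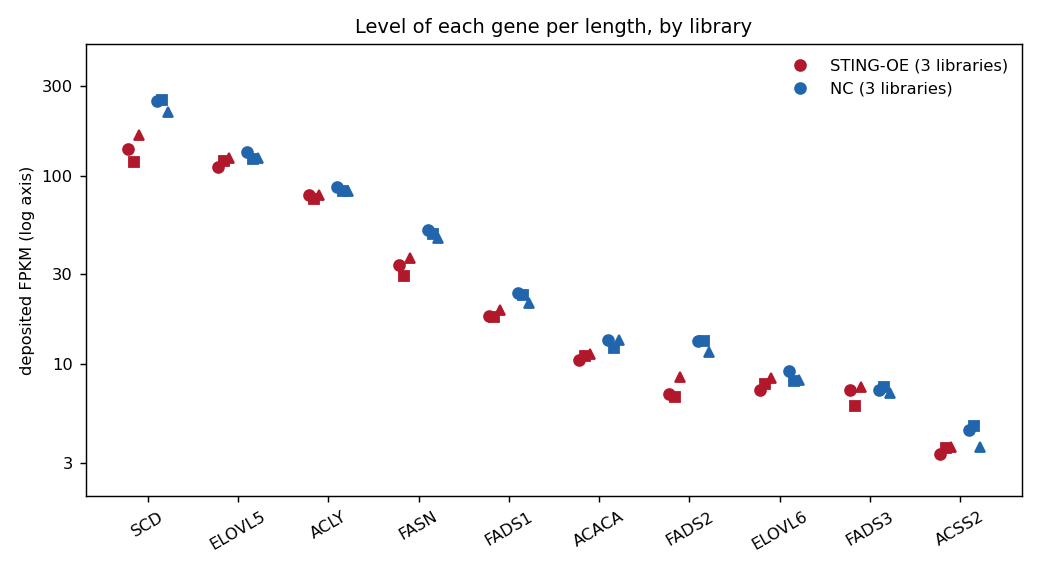
Deposited FPKM of each gene in each library (y axis, log scale), ordered by the mean of the NC libraries; red symbols are the 3 STING-OE libraries and blue symbols, to their right, the 3 NC libraries. SCD is highest in both groups, and the FADS2 libraries overlap those of ELOVL6 in STING-OE cells and lie above them in NC cells.

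The 10 genes ordered the STING-OE libraries in similar ways. STING-OE library 3 was the highest of the 3 in 9 genes and the lowest in 0, and STING-OE library 2 was the lowest in 6. Relative to the NC mean, SCD was at 0.576, 0.480 and 0.678 in STING-OE libraries 1, 2 and 3, FADS2 at 0.547, 0.514 and 0.666, and FASN at 0.678, 0.586 and 0.732. STING1 was lowest in that same library 3, at 47.3 CPM, beside 56.3 and 54.7 CPM in STING-OE libraries 1 and 2. In the NC group STING1 was also lowest in library 3, at 31.2 CPM, beside 36.2 and 37.1 CPM in NC libraries 1 and 2. NC library 3 was, however, the lowest NC library in 7 of the 10 genes. In each group 3 libraries are too few for a correlation. How many of all tested genes order the libraries in these ways was not determined, so the order may not be particular to the 10 genes.

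Base composition also differed between libraries, and its part in these differences was not tested beyond the correction. The log2 level per 10% of GC content changed by 0.0293, −0.0665 and −0.0386 in STING-OE libraries 1, 2 and 3 and by 0.0154, 0.0431 and 0.0173 in NC libraries 1, 2 and 3. GC content of the longest transcript was 65.3% for FASN and 58.6% for FADS2, but 47.1% for SCD and 50.1% for FADS1. After a correction for these trends, the estimates of SCD, FADS2, FASN, FADS1 and ACACA were −0.81, −0.73, −0.51, −0.32 and −0.26 on the log2 scale. The corrected fit called 4 genes, namely ACACA, FADS1, FASN and ELOVL5 (edgeR adjusted p of 0.00753, 0.00375, 0.0151 and 0.0305), where 1.25% of all tested genes were called lower.

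Regulators of the pathway were examined beside its enzymes. SREBF2, one of the genes for the SREBP transcription factors, fell to 189 ± 9.28 CPM with the STING plasmid, against 234 ± 3.83 CPM with the control plasmid (SD, n = 3 each; log2 fold change −0.31, SE 0.0467, edgeR adjusted p = 0.00352), and passed in all 6 fits with 1 library left out. SREBF1, the SREBP gene tied most closely to fatty acid synthesis, had 70.9, 62.0 and 90.8 CPM in STING-OE libraries 1, 2 and 3 and 124, 124 and 114 CPM in NC libraries 1, 2 and 3. Its groups were apart, and its STING-OE libraries stood in the same order as those of SCD, FASN and FADS2. How common that order is over all tested genes was not determined. SREBF1 did not pass with all libraries (log2 fold change −0.69, SE 0.155, edgeR adjusted p = 0.148) and did without STING-OE library 3 (edgeR adjusted p = 2.89e-05). INSIG1, a sterol-responsive brake on SREBP processing, had 190, 170 and 244 CPM in STING-OE libraries 1, 2 and 3 and 285, 289 and 272 CPM in NC libraries 1, 2 and 3. Its log2 fold change was −0.49 (SE 0.146), with an edgeR adjusted p of 0.245 with all libraries and 7e-05 without STING-OE library 3. Of 22 tested regulators of lipogenesis 1 was lower (SREBF2), 0 were higher and 21 did not pass. Of all tested genes edgeR called 0.89% lower and 0.604% higher. DESeq2 called 4 regulators lower, beside 2.73% of all tested genes.

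Other genes of lipid metabolism were counted in 7 lists, none of which holds any of the 10 enzymes. Of their 133 tested genes 6 were lower (4.51%) and 0 were higher in edgeR, beside 0.89% and 0.604% of all tested genes. Their median log2 fold change was −0.08, and 101 of the 133 estimates were negative, beside 49.8% of all tested genes. At an unadjusted edgeR p under 0.05 there were 27 lower and 5 higher, beside 7.2% and 7.17% of all tested genes. DESeq2 called 13 lower and 2 higher, beside 2.73% and 1.89% of all tested genes. By limma-voom 5 were lower and 0 higher, beside 0.89% and 0.558%. Among the genes that fell were TKT, SREBF2, DBI, LPCAT1 and LPCAT3.

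In the list of carbon and NADPH supply 2 of 17 genes were lower, beside 0.89% of all tested genes. TKT, a transketolase, fell to 0.808 of the control level (edgeR adjusted p = 0.0224). TKT had 742, 619 and 715 CPM in STING-OE libraries 1, 2 and 3 and 874, 869 and 826 CPM in NC libraries 1, 2 and 3. Its groups did not overlap, and it did not pass without NC library 1, 2 or 3 (edgeR adjusted p of 0.112, 0.117 and 0.0577).

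Among genes that use the products, LPCAT3, which puts polyunsaturated acyl chains into phospholipids, fell to 14.4 ± 0.561 CPM with the STING plasmid, against 19.8 ± 2.34 CPM with the control plasmid (SD, n = 3 each; log2 fold change −0.46, edgeR adjusted p = 0.0212). LPCAT1, a lysophosphatidylcholine acyltransferase, fell to 67.8 ± 2.73 CPM, against 80.6 ± 2.80 CPM in NC cells (edgeR adjusted p = 0.0238). DBI, the acyl-CoA binding protein, fell to 85.8 ± 1.83 CPM, against 99.8 ± 2.58 CPM in NC cells (edgeR adjusted p = 0.0298). Each of these 3 genes passed in 1 of the 6 fits with 1 library left out, that without STING-OE library 1, and the adjusted p was between 0.0526 and 0.156 in the others. The lists were glycerolipid assembly (2 of 21 lower) and acyl-CoA synthetases and carriers (1 of 19 lower), beside 0.89% of all tested genes.

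Of 19 other genes of elongation and desaturation 0 passed in edgeR, DESeq2 or limma-voom, which called 0.89%, 2.73% and 0.89% of all tested genes lower. With an unadjusted edgeR p under 0.05, 1 was lower and 1 higher, beside 7.2% and 7.17% of all tested genes. CYB5R3, the reductase that passes electrons to the desaturases, was at 105 ± 4.6 CPM with the STING plasmid and 114 ± 2.76 CPM with the control plasmid (edgeR adjusted p = 0.234). ELOVL4, an elongase of very long chains, was at 30.3 ± 0.889 CPM with the STING plasmid and 27.2 ± 1.47 CPM with the control plasmid (edgeR adjusted p = 0.282).

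Of 25 genes of fatty acid oxidation 0 passed in edgeR, DESeq2 or limma-voom, which called 0.89%, 2.73% and 0.89% of all tested genes lower. With an unadjusted edgeR p under 0.05, 1 was lower and 1 higher, beside 7.2% and 7.17% of all tested genes. The median log2 fold change of the 25 genes was −0.06, and 20 of the 25 estimates were negative, beside 49.8% of all tested genes. CPT1B, which takes fatty acids into mitochondria, was at 7.48 ± 1.93 CPM in STING-OE cells and 5.52 ± 0.868 CPM in NC cells (edgeR adjusted p = 0.260). EHHADH, a peroxisomal enzyme of oxidation, was at 7.97 ± 0.758 CPM in STING-OE cells and 9.59 ± 0.482 CPM in NC cells (edgeR adjusted p = 0.282). Mitochondrial fatty acid synthesis, a separate pathway that feeds lipoate, had 0 of 10 genes called by any of the 3 tools and 0 at an unadjusted edgeR p under 0.05. Of its 10 estimates 9 were negative. The smallest p values there were those of the acyl carrier protein NDUFAB1 (log2 fold change −0.13, edgeR adjusted p = 0.370) and the lipoyltransferase LIPT1 (−0.30, edgeR adjusted p = 0.576).

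**Figure D5:**
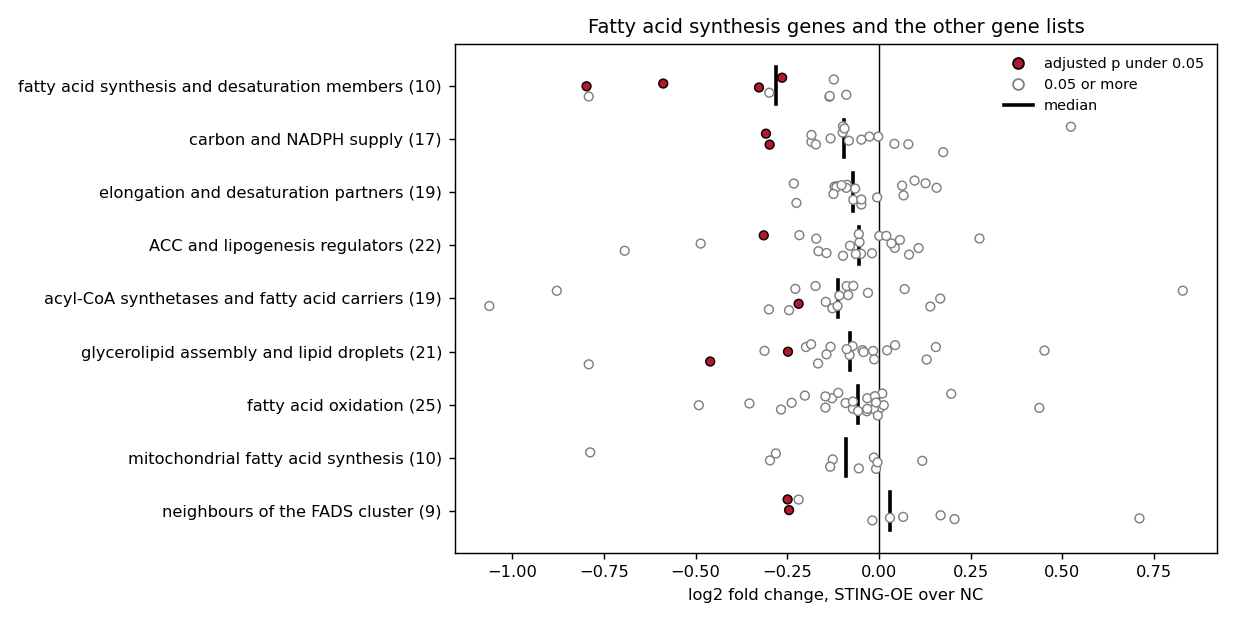
Log2 fold change of each tested gene, STING-OE over NC (x axis), for the 10 fatty acid synthesis and desaturation genes (top) and the other lists, with the number of tested genes in brackets; red points passed edgeR's test at an adjusted p under 0.05 and black bars are medians. The median of the top list is −0.28 and those of the 7 other lipid lists lie between −0.11 and −0.05.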

How the data were processed

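RNA-seq libraries of 3 STING-OE and 3 NC samples were used. Trizol extraction and an Illumina TruSeq kit are named per the labels' protocols, and Bowtie 0.12.2 per the submitters' processing notes. No source used here gives the counting program, the annotation, the build or the strand setting. The deposited tables hold, per the file headers, read counts and FPKM for each Ensembl gene as the authors computed them. GENCODE 29 held 40903 of the 42307 identifiers, and 89.7% of these matched it by an end point to within 1 base, so coordinates are read as GRCh38.

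The main test was that of edgeR 4.0.16 on the counts (R 4.3.3, filterByExpr, TMM, robust quasi-likelihood fit, two-sided, Benjamini-Hochberg over all 21679 tested genes, threshold 0.05), without covariates. Standard errors were taken from the F values and are approximate. CPM use TMM-scaled library sizes. Single values were compared by exact permutation tests. Alternatives changed the scaling (RLE, upper-quartile, total counts), the low-count filter (none, or a mean of 1 CPM) or the tool (DESeq2 1.42.0, limma-voom (limma 3.58.1), limma on log2(FPKM + 0.1) and log2(FPKM + 1)), or added a correction for GC content and length of the longest GENCODE transcript, the replicate number as a block, or left out each library in turn. Within groups the chi-square per gene between libraries was 11.7 to 23.0, so none was counted as a duplicate.

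The members and lists were chosen with earlier results of these data known. Named genes are the members, STING1, SREBF1, SREBF2, INSIG1, FTH1, TMEM258, FEN1, MYRF, and from each list its called genes (at most 6) or otherwise the 2 with the smallest p. The values of 1 gene that this rule named are not reported here. Promoters are those of RefSeq (GRCh38.p14).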

Additional observations from a re-analysis of the deposited data

How the results depend on the processing

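Each of the 10 enzyme genes kept its negative sign under all alternatives, except FADS3, whose log2 fold change was −0.151 to 0.012 with 1 library left out, the highest without STING-OE library 2. The number of the 10 called was 4 in the main test and 7 with DESeq2, 0 with limma on log2(FPKM + 0.1) and 0 on log2(FPKM + 1), and 1 to 5 with 1 library left out. It was 2 with the replicate number as a block (FASN and FADS1), where 0.3% of all tested genes were called lower. Deviations of same-numbered libraries from their group means correlated at 0.0551, 0.0231 and 0.0172, and those of differently numbered libraries at −0.04 to 0.0192. The labels do not say whether same-numbered libraries shared a culture. With the block and the correction for GC content and length 3 were called (0.221% of all tested genes). The sum of FADS1 and FADS2 differed by −114 CPM, and by −128 to −105 CPM with 1 library left out, the sum of all 10 by −144 FPKM (−163 to −129) and the log2 ratio of FADS2 to FADS1 by −0.477 (−0.543 to −0.433).

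Counts in the other lists were small and moved with the settings. With limma on log2(FPKM + 0.1) or log2(FPKM + 1) 0 genes were called in each list, where 0.0138% of all tested genes were called lower. DESeq2 called 4 genes of the carbon and NADPH list, 4 regulators, 3 acyl-CoA genes and 4 glycerolipid genes, against 2, 1, 1 and 2 in the main test. Over all tested genes DESeq2 called 2.73% lower and 1.89% higher, and the main test 0.89% and 0.604%. Of these DESeq2 calls 1 acyl-CoA gene and 1 glycerolipid gene were higher, and all others were lower, as in the main test. The replicate block gave 1 in the carbon and NADPH list, 0 acyl-CoA genes, 1 glycerolipid gene and 0 neighbours of the desaturase cluster. It called 0.3% of all tested genes lower. The block with the correction gave 0 in the carbon and NADPH list, 0 glycerolipid genes and 1 neighbour. That fit called 0.221% of all tested genes lower. The correction alone gave 2 acyl-CoA genes and 1 neighbour (1.25% of all tested genes lower), and total-count scaling 0 acyl-CoA genes (0.637%). By limma-voom 1 gene of the carbon and NADPH list was called (0.89% of all tested genes lower). Upper-quartile scaling, no filter and the filter at a mean of 1 CPM each gave 2 regulators. They called 1.13%, 0.702% and 2.62% of all tested genes lower. With 1 library left out the counts were 0 to 4 for carbon and NADPH, 0 to 1 for elongation partners, 1 to 4 for regulators, 0 to 3 for acyl-CoA genes, 0 to 3 for glycerolipid genes and 0 to 2 for the neighbours. Of the 3 acyl-CoA genes called without STING-OE library 1, 2 were lower. The causes of these moves were not tested.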
